A study of Arabidopsis thaliana with 12 samples.

Results

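The nuclear photosynthesis genes described here were 45 loci, taken by function: 6 LHCA and 14 LHCB genes for the antenna proteins of photosystem I and photosystem II, 4 RBCS genes for the small subunit of Rubisco, 10 genes for photosystem I subunits, 9 for photosystem II subunits (PSBS included), and the 2 plastocyanin genes PETE1 and PETE2. They were 45 of the 27444 nuclear protein-coding genes of the TAIR10.1 annotation, and all 45 were found in it by locus code. The rule itself used no measured value, though the list was drawn up with earlier results of these data known.

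The antenna proteins hold chlorophyll and pass light energy to the photosystems, photosystem II takes electrons from water, plastocyanin carries electrons to photosystem I, and Rubisco fixes carbon dioxide. These proteins are coded in the nucleus and imported into the chloroplast, and their genes are known as some of the most light-responsive in plants. In a dry seed the embryo is not photosynthesizing, and the genes are turned on as the seedling becomes green.

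The study asked how the histone variant H3.3 shapes accessible chromatin in Arabidopsis seeds. Accessibility was mapped by ATAC-seq, in which the Tn5 transposase cuts and tags open DNA, on DAPI-stained nuclei sorted by flow cytometry from whole seeds. Mature seeds of h3.3ko, which lack all H3.3 because HTR4 and HTR5 carry CRISPR mutations and HTR8 a T-DNA insertion, were set against mature seeds of the wild type Col, with 2 libraries per genotype. The h3.3ko seeds were picked as those without mCherry fluorescence from plants heterozygous for a pHTR5::HTR5 transgene, so the mother plant carried the transgene. The labels list 12 libraries in 6 groups, and the other 8, of germinating stages and seedlings, are not used here.

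Differences between the genotypes were deposited as a list of 3278 regions less accessible and a list of 3436 regions more accessible in h3.3ko than in Col. The lists hold no value per library, so the depth behind a region cannot be read from them, no replicate spread can be given, and no test was run on the counts below. The lists hold only regions that passed the authors' thresholds for a difference. A gene without a region may therefore have had no accessible chromatin, unchanged accessible chromatin, or a change that fell short of those thresholds. A gene was given a region where its body or the 1 kb upstream of its annotated start shared at least 1 bp with it.

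Of the 45 photosynthesis genes, 4 had a region of lower accessibility in h3.3ko (8.89%), against 4043 of all protein-coding genes (14.7%). Regions of higher accessibility lay at 8 of the 45 (17.8%), against 4388 of all protein-coding genes (16.0%). No member had both kinds, against 3.35% of all genes, and 33 members had neither (73.3%), against 72.6%. Both shares of the members lay within a few genes of the background. Where a region's midpoint had to lie in the window, 8.89% of members had higher accessibility, against 12.9% of all genes, so the order of these shares turned with the way regions were assigned.

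**Figure D1:**
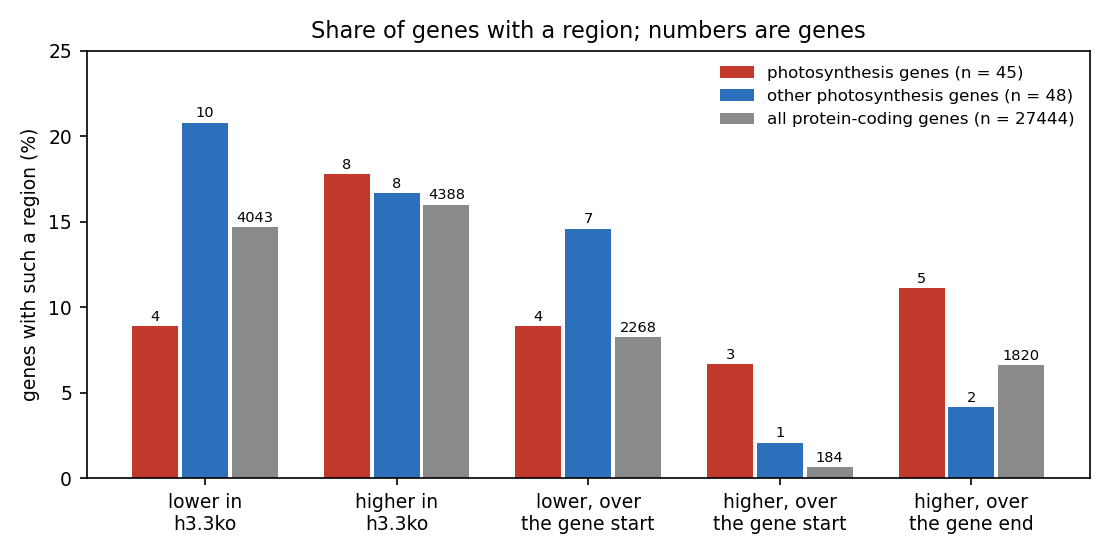
Share of genes with a region (vertical axis, percent) for the 45 photosynthesis genes, 48 other photosynthesis genes and all 27444 protein-coding genes, by kind of region and by whether it covered the gene start or end, with the number of genes above each bar. The 45 genes stand at 8.89% for lower and 17.8% for higher accessibility, and 3 of them had a region of higher accessibility over the gene start.

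By complex, the 4 genes with lower accessibility were 1 LHCA, 1 RBCS, 1 photosystem I and 1 photosystem II gene. The 8 with higher accessibility were 4 of 14 LHCB genes, 3 of 10 photosystem I genes and 1 of 9 photosystem II genes. None of the 14 LHCB genes had lower accessibility, and none of the 6 LHCA or 4 RBCS genes had higher accessibility. Plastocyanin genes had no region of either kind. Over all protein-coding genes the shares were 14.7% for lower and 16.0% for higher accessibility. With so few genes per complex, these counts do not set the complexes apart.

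The stretches just upstream of 3 genes with lower accessibility are printed here, with the matching stretch of the paralog that had no region for 2 of them, because these letters lie inside the less accessible region (for LHCA4 the nearest 250 bp of it). All were read from the TAIR10.1 genome, 5′ to 3′ on the strand of the gene, and each ends at the base before the annotated gene start. Capitals mark exact matches of the motif letters described with the promoters, on either strand: the G-box core CACGTG, the I-box core GATAAG, the GLK letters CCAATC and the CCA1 letters AAAAATCT, where a match on the other strand appears as the reverse complement. LHCA4 lies at chr3:17495034-17495283 on the minus strand, PSBQ1 at chr4:11334186-11334351 on the plus strand, its paralog PSBQ2 at chr4:2673244-2673409 on the minus strand, PSAD1 at chr4:1230165-1230343 on the minus strand and its paralog PSAD2 at chr1:754263-754441 on the minus strand.
LHCA4: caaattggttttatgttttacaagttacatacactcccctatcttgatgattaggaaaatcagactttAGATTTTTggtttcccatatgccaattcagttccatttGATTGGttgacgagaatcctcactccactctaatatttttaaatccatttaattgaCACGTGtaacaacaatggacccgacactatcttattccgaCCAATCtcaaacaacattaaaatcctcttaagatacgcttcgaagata
PSBQ1: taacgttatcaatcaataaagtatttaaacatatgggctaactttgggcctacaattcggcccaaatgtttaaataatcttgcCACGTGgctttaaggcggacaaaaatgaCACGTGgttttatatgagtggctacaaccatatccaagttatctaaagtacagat
PSBQ2: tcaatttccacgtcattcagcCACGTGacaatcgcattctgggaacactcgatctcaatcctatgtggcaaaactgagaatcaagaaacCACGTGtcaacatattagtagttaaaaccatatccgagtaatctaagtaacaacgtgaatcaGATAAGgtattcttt
PSAD1: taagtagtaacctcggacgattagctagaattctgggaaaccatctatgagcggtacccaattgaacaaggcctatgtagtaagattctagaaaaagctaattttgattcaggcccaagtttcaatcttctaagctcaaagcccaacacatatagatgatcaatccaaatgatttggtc
PSAD2: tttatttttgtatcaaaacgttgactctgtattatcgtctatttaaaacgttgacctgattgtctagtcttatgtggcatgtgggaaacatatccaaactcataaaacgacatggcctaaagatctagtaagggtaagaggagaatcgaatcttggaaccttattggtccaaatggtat
PSBQ1 held 2 G-box cores, beginning 83 and 55 bp upstream of its start, and PSBQ2, which had no region, also held 2, at 145 and 77 bp. Neither PSAD stretch held any of the motifs as printed. An I-box core did lie in the wider promoter stretch of both genes, described below, and the whole PSAD1 region held GATAAG. The LHCA4 stretch held a G-box core at 88 bp and GLK letters at 144 and 48 bp.

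All 4 regions of lower accessibility covered the annotated gene start. Over all protein-coding genes, 8.26% had such a region over the start, the same measure as 4 of 45 members (8.89%), and of all pairs of a gene and a region of lower accessibility 54.5% covered the start. The midpoints of the 4 lay 23 to 172 bp inside the gene, and the median midpoint over all 4165 pairs lay 123 bp upstream. These are unlike sets, since 29.5% of those pairs had a region wholly upstream, and the members were not compared with start-covering regions alone.

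LHCA4 (AT3G47470), coding for a main antenna protein of photosystem I, had the widest of them, chr3:17494399-17495342 (944 bp). It ran over 309 bp upstream of the gene, 260 bp of untranslated exon, 209 bp of coding sequence and 166 bp of intron, with its midpoint 163 bp inside the gene. No other gene overlapped it. The other 5 LHCA genes had no region, with the nearest region of lower accessibility 1921 bp from the window of LHCA2 and 29082 bp from that of LHCA1.

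PSAD1 (AT4G02770) codes for the stromal subunit of photosystem I that helps to dock ferredoxin. Its region, chr4:1229931-1230343 (413 bp), held 179 bp of upstream sequence and 234 bp of untranslated exon and no coding sequence. The midpoint lay 27 bp inside the gene, and the region also overlapped the window of AT4G02760. PSAD2, the other gene for this subunit, shares 86.3% of aligned coding bases and 51.6% of the 250 bp upstream. Over the 17 pairs of copies compared, upstream identity ran from 48.8% to 68.8%, and no baseline for unrelated promoters is given. The nearest region of lower accessibility was 13653 bp from the window of PSAD2.

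PSBQ1 (AT4G21280) codes for an extrinsic protein of the oxygen-evolving complex of photosystem II. A region of 379 bp at chr4:11334186-11334564 covered 166 bp upstream, 94 bp of untranslated exon and 119 bp of coding sequence. Its midpoint lay 23 bp inside the gene, and it also overlapped the window of AT4G21270. The paralog PSBQ2 (77.2% coding identity) had none, and the nearest was 36262 bp away.

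RBCS3B (AT5G38410), 1 of 4 genes for the small subunit of Rubisco, had a region of 415 bp at chr5:15378263-15378677. Only 35 bp of it lay upstream, and 336 bp were untranslated exon and 44 bp coding sequence. It also covered the gene's second annotated transcript start, 226 bp inside the gene. RBCS2B and RBCS1B, its tandem neighbours on chromosome 5 with 94.3% and 94.1% coding identity, had no region. For both, the nearest region of lower accessibility was this RBCS3B region itself, 2230 and 4490 bp away. RBCS1A, on another chromosome, had none in its window either, and the nearest was 558 bp beyond it.

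**Figure D2:**
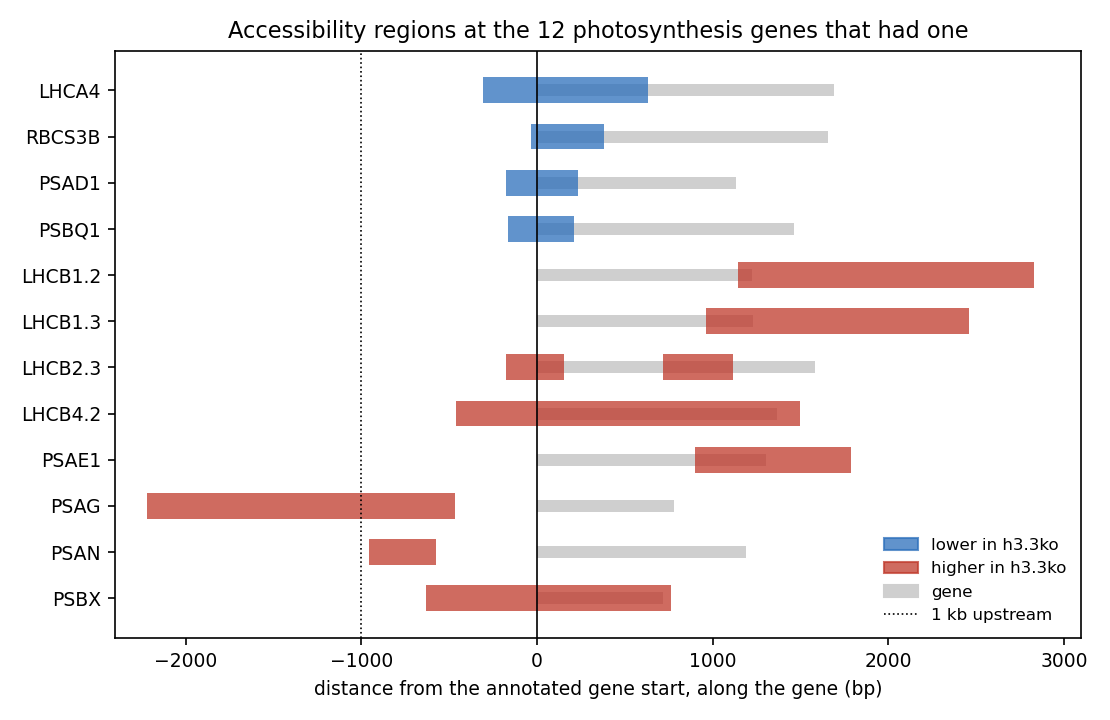
Position of every region at the 12 genes that had one, by distance from the annotated gene start along the gene (horizontal axis, bp), with genes in grey, regions lower in h3.3ko in blue and regions higher in h3.3ko in red. The 4 blue regions all cover the start, and the red regions range from 327 to 1961 bp in width and lie upstream, over the start, inside or over the end of the gene.

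Regions of higher accessibility were more varied in place. There were 9 at 8 genes, with LHCB2.3 holding 2. Their median width was 1396 bp (327 to 1961 bp), against 768 bp for the 3272 such regions assigned to protein-coding genes, and 5 of the 9 were wider than 1300 bp, against 17.3%. The 4 regions of lower accessibility at members had a median of 414 bp (379 to 944 bp), against 493 bp for 2887 assigned regions.

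The LHCB1 genes code for the main protein of the photosystem II antenna trimer, and LHCB1.1, LHCB1.2 and LHCB1.3 lie together on chromosome 1. LHCB1.2 (AT1G29910) had a region of 1688 bp at chr1:10470671-10472358, of which 79 bp lay in its untranslated last exon and 1609 bp past its end. LHCB1.3 (AT1G29930) had one of 1500 bp at chr1:10478846-10480345, with 240 bp of untranslated exon, 29 bp of coding sequence and 1231 bp past its end. Both also covered the end of the neighbouring gene, CARB for LHCB1.2 and NRPA2 for LHCB1.3. LHCB1.1, between them, shares 95.6% and 96.1% of aligned coding bases with LHCB1.2 and LHCB1.3 and had no region, the nearest of higher accessibility being 1877 bp from its window.

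LHCB2.3 (AT3G27690), another trimer protein gene, had a region over its start at chr3:10255732-10256058 (327 bp, 174 bp of it upstream). Another lay inside the gene at chr3:10256624-10257022 (399 bp, 298 bp of coding sequence) and also covered the end of AT3G27700. The annotated start of LHCB2.3 is also the first base of its coding sequence, so its true transcription start may lie farther upstream. LHCB2.1 and LHCB2.2, with coding identities of 70.6% and 75.4% to it, had no region.

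LHCB4.2 (AT3G08940) codes for a minor antenna protein that joins the trimers to the photosystem II core. Its whole 1367 bp lay inside a region of 1961 bp at chr3:2717096-2719056, which also covered the ends of the genes on either side, AT3G08930 and AT3G08943. LHCB4.1 and LHCB4.3 had no region.

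PSBX (AT2G06520), for a small membrane subunit of photosystem II and the shortest member at 720 bp, was the other gene covered whole, by chr2:2587686-2589081 (1396 bp). The ends of its neighbours RPA1A and VPS2.1 lay in it too. Genes wholly inside a region of higher accessibility were 36 of all protein-coding genes (0.131%), and 16 of the 19074 within the members' range of lengths (0.0839%), 2 of them members.

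The remaining 3 were photosystem I genes. PSAE1 (AT4G28750), for a stromal subunit beside PSAD, had chr4:14202275-14203162 (888 bp) over its end, with 483 bp past it, and also over the end of AT4G28740. PSAG (AT1G55670), for a membrane subunit, had 1752 bp at chr1:20803919-20805670, wholly upstream and ending 469 bp before the gene start, over the start of AT1G55675 and the end of AT1G55680. PSAN (AT5G64040), for a lumenal subunit, had 384 bp at chr5:25630282-25630665, wholly upstream and inside its neighbour ERS.

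A region of higher accessibility covered the start of 3 members (LHCB2.3, LHCB4.2 and PSBX, 6.67%), against 184 of all protein-coding genes (0.670%), and against 0.634% of the genes within the members' range of lengths. With 3 genes, the count rests on few regions, and 2 of these 3 genes were covered whole. The annotated start of LHCB2.3 is its first coding base, so the point covered there may not be its true start. The end was covered in 5 members (11.1%), against 6.63% of all genes, and the gene body was overlapped in 6 (13.3%), against 13.0%. In 7 of the 9 pairs of a member and a region, the region covered the end of another protein-coding gene, against 28.6% of 4698 pairs over all genes. This measure was chosen after the regions had been seen. Since 1 region was counted for every gene it overlapped, whether it belongs to the member or to its neighbour cannot be told apart.

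**Figure D3:**
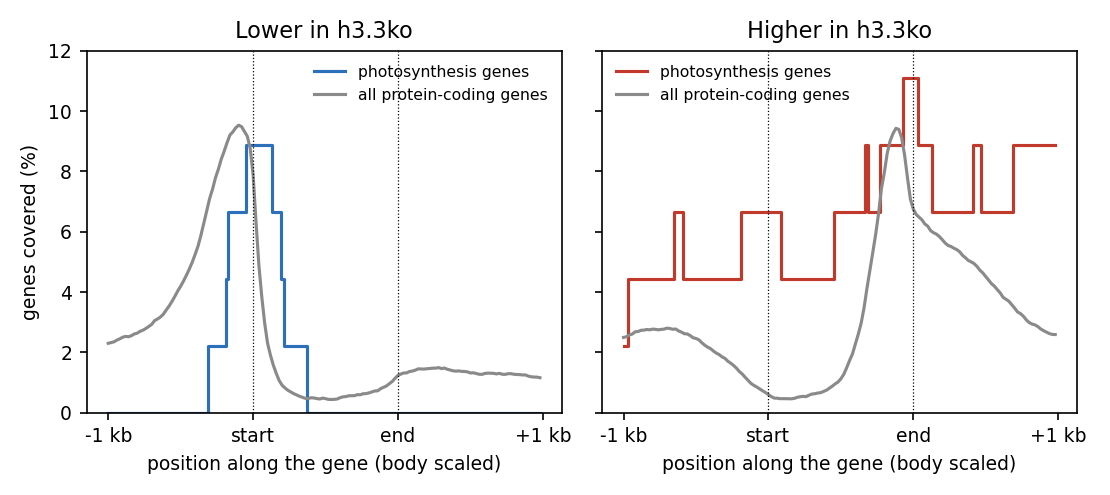
Share of genes covered by a region (vertical axis, percent) along 1 kb upstream, the scaled gene body and 1 kb downstream, for the photosynthesis genes (coloured) and for 26207 protein-coding genes of at least 500 bp (grey), with regions lower in h3.3ko on the left and higher on the right. Lower accessibility at members peaks at 8.89% at and inside the gene start, and higher accessibility at 11.1% at the gene end.

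Gene length differs between the lists and bears on these shares. The members had a median length of 1404 bp, against 2078 bp for all protein-coding genes. Among the 4043 protein-coding genes within the members' interquartile lengths (1188 to 1673 bp), 12.3% had a region of lower and 8.09% a region of higher accessibility, against 2 (8.70%) and 6 (26.1%) of the 23 members of those lengths. Over the members' full range of lengths, 720 to 3207 bp, the shares of all protein-coding genes were 14.5% and 12.3%, against 8.89% and 17.8% of the members. The part of length in the members' counts was not tested.

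The members without a region were LHCA1, LHCA2, LHCA3, LHCA5 and LHCA6 of the photosystem I antenna, LHCB1.1, LHCB1.4, LHCB1.5, LHCB2.1, LHCB2.2, LHCB3, LHCB4.1, LHCB4.3, LHCB5 and LHCB6 of the photosystem II antenna, and RBCS1A, RBCS1B and RBCS2B. PSAD2, PSAF (which docks plastocyanin), PSAH2, PSAK, PSAL and PSAO of photosystem I had none either. Nor had PSBS, which acts in the dissipation of excess light energy, PSBO1, PSBO2, PSBP1 and PSBQ2 of the oxygen-evolving complex, PSBR, PSBW, or the plastocyanin genes. For the 41 members without a region of lower accessibility, the median distance from the window to the nearest one was 11533 bp, against 11463 bp for protein-coding genes without one. The closest were at PSBR (431 bp), PSBO1 (464 bp) and RBCS1A (558 bp), and the farthest at PSBX (237336 bp). For the 37 without one of higher accessibility the median was 16048 bp, against 10809 bp, with PSAO nearest (420 bp) and PSBQ1 farthest (62148 bp).

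Promoter letters were compared with the regions, over the stretch 250 bp before to 50 bp after each gene start. The G-box core is bound by bZIP and bHLH factors of the light response, the I-box core is a common element of RBCS and LHC promoters, the CCAATC letters are bound by the GLK factors that drive photosynthesis genes, and the CCA1 letters by a clock factor first found at an LHCB promoter. Matches on both strands to CACGTG were in 13 of 45 member promoters (28.9%), against 7.68% of all 27444, to GATAAG in 19 (42.2%), against 14.6%, and to CCAATC in 16 (35.6%), against 12.3%. The letters AAAAATCT were in 6 (13.3%), against 7.88%, and AACAATCT in 1 (2.22%), against 2.24%. A match is only a run of letters, and no binding was measured.

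**Figure D4:**
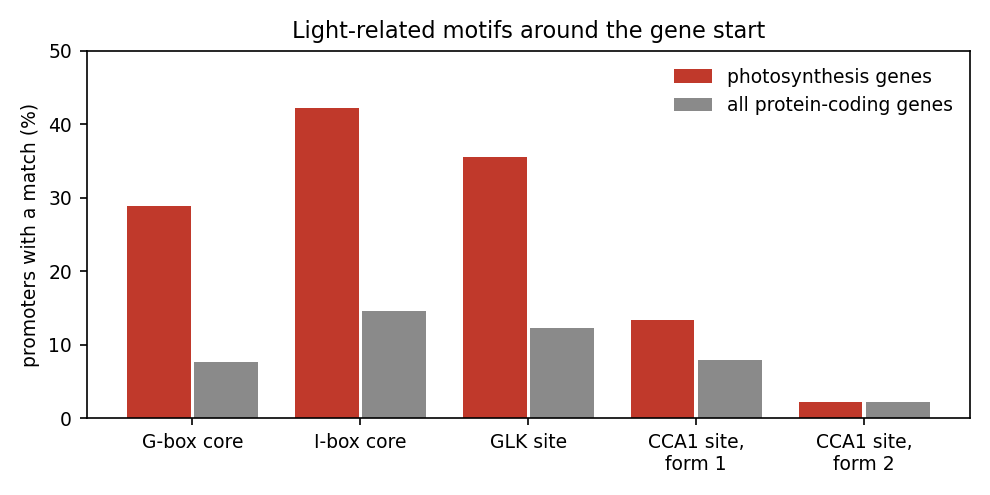
Share of promoters (vertical axis, percent) with an exact match to each of 5 motifs between 250 bp before and 50 bp after the gene start, for the photosynthesis genes and for all protein-coding genes. Member promoters hold the G-box core in 28.9%, the I-box core in 42.2% and the GLK letters in 35.6%.

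Most members with the G-box letters had no region, as had 73.3% of all members and 72.6% of all protein-coding genes. Of the 13 members with them, 2 had a region of lower accessibility (LHCA4 and PSBQ1), whereas over all promoters with the letters 31.0% of genes had one. Higher accessibility was found at 2 of the 13 (LHCB2.3 and PSAE1), against 21.5%. The other 11 members without lower accessibility included PSBO1, PSBO2 and PSBR of photosystem II, and LHCB4.1 and LHCB6. Within the regions themselves, 3 of the 4 of lower accessibility at members held CACGTG, against 33.9% of all such regions, all 4 held GATAAG, against 30.2%, and 2 held CCAATC, against 26.4%. Of the 9 regions of higher accessibility at members, 1 held CACGTG, against 11.6%, 2 held GATAAG, against 34.2%, and 5 held CCAATC, against 34.7%. These shares rest on 4 and 9 regions of unequal width, and wider regions hold more letters.

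Several members have near-identical copies. In 33 members no 50-bp stretch of the gene body occurred elsewhere in the nuclear genome, and in 3 (LHCB1.1, LHCB2.1 and LHCB2.2) more than 20% of stretches did. None of these 3 had a region, and neither did 73.3% of all members and 72.6% of all protein-coding genes. Other members without a region had repeated stretches too: 17.3% of the body of LHCB1.5, 14.5% of RBCS1B, 13.7% of LHCB1.4 and 13.4% of RBCS2B. The share was 7.92% at LHCA2 and 6.46% at PSBS, and 20.7% of the window of RBCS1B. Among genes with a region, repeated stretches made up 18.0% of the body of RBCS3B, 17.0% of LHCB1.3 and 10.6% of LHCB1.2. They made up 17.9% of the window of PSAD1, where all lay upstream of the gene. None of them lay inside a region: in each of the 13 regions at members, 0% of the 50-bp stretches occurred elsewhere. The filter on multiply mapped reads is not given in the sources used here.

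A second list held 48 other photosynthesis genes: 8 further photosystem and antenna genes and 40 of the cytochrome complex, ATP synthase, ferredoxin, carbon fixation, chlorophyll synthesis and the GLK factors. Regions of lower accessibility lay at 10 of the 48 (20.8%), against 14.7% of all protein-coding genes, regions of higher accessibility at 8 (16.7%), against 16.0%, and neither at 31 (64.6%), against 72.6%. Of the 8 further photosystem and antenna genes, 3 had lower and 1 had higher accessibility. Counted together with the 45, they gave 7 of 53 with lower (13.2%) and 9 of 53 with higher accessibility (17.0%), so the share of 8.89% depends on which subunits were on the list. Lower accessibility was found at PSAP, PSBTN and PSB27 of the photosystems, PETC of the cytochrome complex, ATPD of the ATP synthase, TKL1 and PDTPI of carbon metabolism, CHLH and CHLG of chlorophyll synthesis, and GLK2, a transcription factor for photosynthesis genes. The GLK2 region, chr5:17798089-17798300 (212 bp), covered its gene start. The region at PSAP, chr2:19244991-19245592 (602 bp), lay over its end and also over the start of CCA1, the clock factor. The regions of lower accessibility at PSBTN and TKL1 also covered the starts of RBL and TTN1, and that at ATPD covered AT4G09649 whole. The CHLH region lay wholly upstream, 607 bp from the gene and inside PDAT. CHLG had a region over its own start and another, upstream, over the start of SAC8. Higher accessibility was found at PSBP2, FD1, PRK, GAPA2, TKL1, FBA2, GUN4 and CAO. Only TKL1 had both kinds, 1 of the 48 (2.08%), against 3.35% of all protein-coding genes. The regions at PSBP2, PRK, GAPA2 and FBA2 lay wholly upstream, 22 to 479 bp from the gene, and each covered the end of a neighbour. With the gene body alone, higher accessibility was found at 4 of the 48 (8.33%), against 13.0% of all protein-coding genes. Where a region counted only for the gene with the nearest end, it was found at 1 of the 48, against 10.0%. A region of lower accessibility covered the start of 7 of the 48 (14.6%), against 8.26% of all protein-coding genes.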

How the data were processed

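Accessible regions were compared between h3.3ko and Col mature seeds, 2 libraries each. Per the study's methods, the authors trimmed reads with fastp 0.20.1, mapped them to TAIR10, removed organelle reads and duplicates (Picard 2.24.0), called peaks with MACS2 and kept those found in both replicates. Peaks of both genotypes were merged, and the lists hold merged peaks past a 2-fold difference at an adjusted P under 0.05. The deposited lists give chromosome, start and end (converted here from 0-based to 1-based positions). A further column holds the authors' own log2 fold changes, which were not used.

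Regions were assigned to genes of the TAIR10.1 RefSeq annotation (gene body and 1 kb upstream, at least 1 bp), with Python 3.11.15 and Biopython 1.88 for copies. The nuclear chromosomes of TAIR10 and TAIR10.1 are the same, and all regions lay inside them. The assignment was checked on planted regions. Distances to the nearest region over all genes used every 10th gene. Named genes were all members and all other photosynthesis genes with a region, and members without one by complex. The members and lists were chosen with earlier results of these data known, and no test was run. Alternatives changed the window, the overlap, the counting of shared regions and tandem copies, and the background genes.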

Additional observations from a re-analysis of the deposited data

How the results depend on the processing

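The count of 4 members with a region of lower accessibility held under 7 of 8 alternatives, and with 2 kb upstream it was 7 (15.6%, against 17.2% of all protein-coding genes), adding RBCS1A, PSBO1 and PSBR. The count of 8 with higher accessibility was 6 to 9 under 6 alternatives. It was 4 (8.89%, against 12.9% of all protein-coding genes: LHCB2.3, LHCB4.2, PSAN and PSBX) where the region's midpoint had to lie in the window, and 2 (4.44%, against 10.0%: LHCB1.3 and PSAE1) where a region counted only for the gene with the nearest end. Under both, the members' share was below that of all genes, the other way round from 17.8% against 16.0%. No member had both kinds under any of 7 alternatives. A stricter threshold on the authors' fold change was not run, since those values are their own comparison. No paired analysis was possible because the lists hold no value per library.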
